A study of Cavia porcellus with 10 samples.

Results

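The cervix of the guinea pig in late pregnancy (LT) was compared with that of non-pregnant females (NP) across all genes of the deposited table, to describe the net change over pregnancy. The comparison takes 7 of the 10 sequenced animals, chosen by their stage label alone: 3 NP and 4 LT females of the Hartley strain, an outbred laboratory stock. The NP females were killed on the day after the membrane that closes the vagina had opened, which marks entry into estrus. The LT females were pregnant for an estimated 65.2 ± 1.2 days (mean and SD of the group) and not in labor. Gestation age was read from the size of the fetuses, and for 1 LT animal no measurement is listed. The other 3 animals, at mid-pregnancy (MT, 43.6 ± 0.5 days), entered the estimate of the spread and are used below only to place the mid-point of the path. The tissue was the vaginal portion of the cervix, a bulk sample of stroma, stratified and mucous epithelium, muscle, vessels and blood cells, so that fewer cells of a type and less RNA per cell cannot be told apart. The NP group stands for 1 point of the cycle, and estrus and the absence of pregnancy cannot be told apart in this design.

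The cervix is a collagen-rich ring that stays closed through pregnancy and softens before birth. Its vaginal face carries an epithelium that keratinizes under estrogen in the cycle of rodents and turns to mucus-secreting cells in pregnancy, and the mucus forms a barrier at the canal. Below it lies a stroma of fibroblasts, whose collagen, proteoglycans and hyaluronan set the stiffness of the tissue. Estrogen, progesterone, relaxin and prostaglandins are known regulators of this remodeling. In the guinea pig, as in humans, progesterone in the blood stays high up to birth.

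Between 20047660 and 27351763 reads per animal were counted on genes in NP and between 25804572 and 27881572 in LT. Levels are given below as TPM (a level per gene length, scaled so that it sums to the same total in each animal), as deposited. Changes are log2 fold changes of LT over NP with their standard error (SE), from edgeR's quasi-likelihood test on the counts, on its TMM scale, and a gene is called where the Benjamini-Hochberg adjusted p over 12645 tested genes is under 0.05. Stromal markers (COL1A1, VIM), a basal marker of stratified epithelium (KRT14), the glandular marker EPCAM and the smooth muscle marker MYH11 were present in every NP and LT animal. The adipocyte marker ADIPOQ was at 0 to 0.118 TPM in NP and at 0.114 to 3.39 TPM in LT, and the ciliated cell marker FOXJ1 did not exceed 3.32 TPM in any of these animals. NP replicate 1 stood apart from the other NP animals: its rank correlations with them were 0.938 and 0.955, against 0.987 between the other two and 0.971 to 0.991 among the LT animals. The summed TPM of squamous differentiation genes was 5.16 times as high in this animal as in the mean of the rest of the NP group, that of smooth muscle genes 2.81 times, that of cholesterol synthesis genes 2.72 times and that of collagen chains 1.74 times, while that of leukocyte markers was 0.612 times. Values whose call changes or whose fold moves more than 1.5 times without this animal are therefore given both ways.

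A large part of the transcriptome differed between the stages. Of 12645 tested genes 6247 were called between NP and LT, or 49.4%, with 2990 higher (23.6%) and 3257 lower (25.8%) in LT. Most of these changes were small: 772 of the higher and 1074 of the lower genes changed more than 2-fold, 240 and 368 more than 4-fold, and 18 and 22 more than 64-fold. Over the whole set the median log2 change was -0.01. On the log2(TPM + 1) scale that median was -0.28 and limma called 1417 genes higher and 5301 lower, so that the balance of rises and falls depends on the scale, and changes are stated here relative to the TMM scale. The TPM of an LT animal lies below its TMM-scaled level by a mean log2 difference of 0.29 relative to NP. On deposited TPM, every LT animal was above every NP animal for 11.8% of tested genes and below every NP animal for 40.6%. A lack of overlap in TPM was thus far more common for falls than for rises. Without NP replicate 1, 3309 genes were higher and 3383 lower, of which 2688 and 2961 were the genes called with it.

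**Figure D1:**
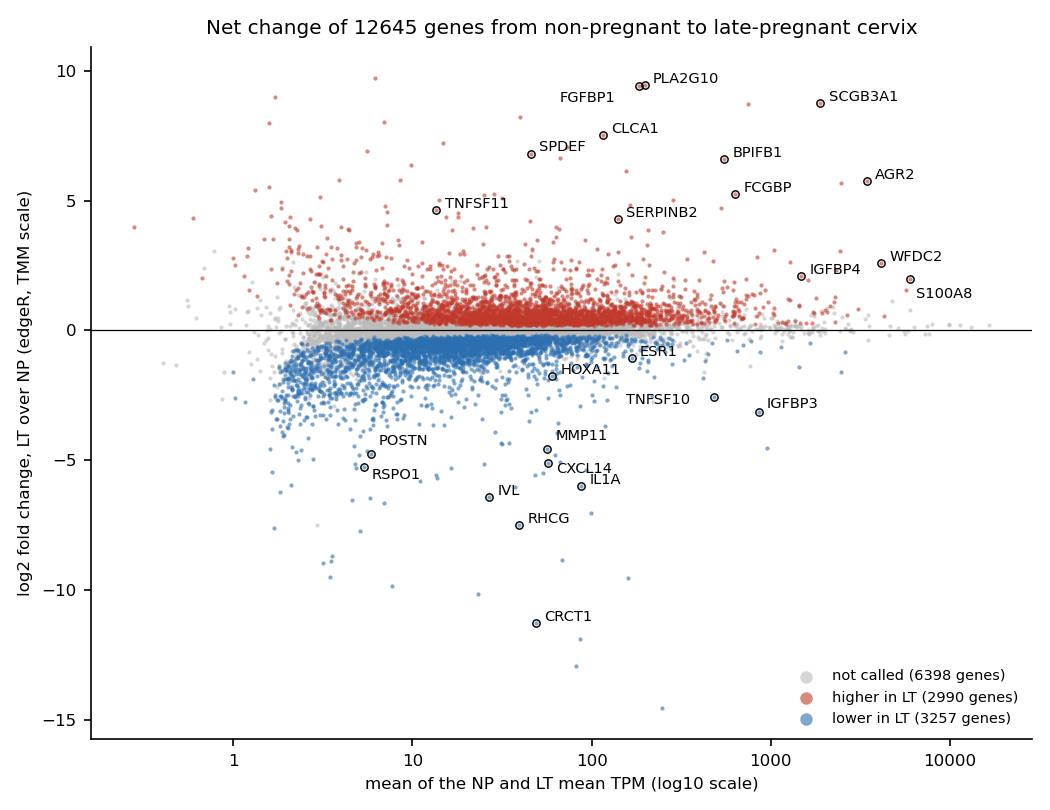
Each point is 1 of 12645 tested genes, with the mean of its NP and LT mean TPM on a log10 horizontal axis and the log2 change of LT over NP from edgeR on the vertical axis. Red points are the 2990 genes called higher in LT, blue points the 3257 called lower and grey points the rest, and named genes are ringed. Secretory genes such as SCGB3A1 (log2 change 8.75) and AGR2 (5.77) lie at the upper right, and the squamous genes CRCT1, RHCG and IVL at the lower middle.

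At the study's operational threshold for an expressed gene, a stage mean of 3 TPM, 227 genes were turned on from NP to LT and 936 turned off, against 317 and 725 with TPM rescaled by the TMM factors. The threshold was backed by 55 to 104.5 reads in a library. Of the genes turned on, 183 have a gene name, 174 were called, and 74 lay below 3 TPM in every NP animal and at or above it in every LT animal. Of the genes turned off, 786 have a name, 657 were called and 327 changed sides in every animal. Most of the genes that crossed were low, with medians of 4.73 TPM in LT for those turned on and 4.83 TPM in NP for those turned off. Above 10 TPM were 38 of the genes turned on and 111 of those turned off, and above 50 TPM 9 and 17. The larger number of changes was in 11364 genes expressed in both stages, of which 2798 were higher and 2589 lower.

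The shift in RNA abundance was carried by fewer genes than the calls. Between the stage means 16.9% of the TPM total moved from genes that lost to genes that gained. The 20 genes that gained most TPM took 36.8% of the gain, and 17 of them were called. The 20 genes that lost most held 16.8% of the loss, and 8 of them were called. Gains were thus more concentrated than losses on the TPM scale. Since TPM sums to a fixed total, large gains in a few genes lower the TPM of all others. The shares were not computed on the TMM scale. AGR2, S100A8, WFDC2, S100A9 and SCGB3A1 had the largest gains among named genes that were called and whose animals did not overlap. Among all named genes called lower, APOD, with stage means of 3925 TPM in NP and 1000.5 TPM in LT, and MGP, with 2225 and 662 TPM, lost most. They did not pass the rule of no overlap, by which IGFBP3, EEF2, TNFSF10, SEPP1 and FN1 had the largest losses. Of the latter, the calls of EEF2 (log2 change -0.49, elongation factor of translation), SEPP1 (-0.63, a selenium carrier) and FN1 (-0.83, fibronectin) were lost when any of several single animals was left out: LT replicate 3 or 4 or NP replicate 3 for EEF2, LT replicate 1, 2 or 4 or NP replicate 2 or 3 for SEPP1, and LT replicate 1, 2 or 3 or NP replicate 1 or 2 for FN1.

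Mucus and secretory genes were among the largest rises. With all animals the largest of the named genes lay outside the mucus list, in A1AS_CAVPO, PLA2G10 and FGFBP1, which are described below. The secreted proteins SCGB3A1 and WFDC2 and the channel subunit LRRC26, given with the mucus genes, are not in the list either. In the list of mucus secretory genes 44 genes were named, 37 have a row and 26 were tested, of which 18 rose and 4 fell, with a median log2 change of 2.31. AGR2 (ENSCPOG00000000018), a protein disulfide isomerase needed for the assembly of mucins, had 104, 219 and 139 TPM in the NP animals and 5547, 6982, 6782 and 7559 TPM in the LT animals. Every LT animal was above every NP animal, with a log2 change of 5.77 (SE 0.38, adjusted p = 5.27e-05). SCGB3A1 (ENSCPOG00000026128), a small secreted secretoglobin of mucosal epithelia, had 6.81, 17.3 and 8.96 TPM in NP and 2784, 2980.0, 4948 and 4353 TPM in LT, a log2 change of 8.75 (SE 0.52, adjusted p = 4.13e-05). FCGBP, a large protein bound to mucins in the mucus layer, had 17.3, 62.2 and 43.1 TPM in NP and 1114, 1780.2, 881 and 1123 TPM in LT, a log2 change of 5.23 (SE 0.62, adjusted p = 0.000279). The groups were far apart for both genes. The gel-forming mucin MUC5B had 9.86, 102 and 115 TPM in NP and 407, 378, 281 and 294 TPM in LT, a log2 change of 2.52 (SE 0.67, adjusted p = 0.0122). Its change was smaller than those of the secretory helpers, and NP replicate 1, at 9.86 TPM, was far below the other NP animals. Without NP replicate 1 the change was 2.01. The other gel-forming mucin with a row, MUC5AC, was below the filter, at 0.0437 to 0.0836 TPM in NP and 1.25 to 4.54 TPM in LT. The membrane-bound mucin MUC4 moved the other way, from 107, 66.9 and 55.6 TPM in NP to 26.0, 24.0, 12.1 and 14.7 TPM in LT, a log2 change of -1.75 (SE 0.34, adjusted p = 0.00274).

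Some regulators of secretory cells, named singly here, also rose. SPDEF, an ETS factor that drives goblet cell differentiation, had 0.0871, 2.50 and 0.635 TPM in NP and 101, 99.5, 84.9 and 77.4 TPM in LT, a log2 change of 6.81 (SE 0.59, adjusted p = 0.000107). The LT animals were close together, and the estimate was 8.31 without NP replicate 2, the highest of the NP animals. BHLHA15 (Mist1), a regulator of the secretory apparatus that was chosen after its values were seen, had 0.938, 4.16 and 2.18 TPM in NP and 16.7, 25.1, 18.1 and 20.6 TPM in LT, a log2 change of 3.40 (SE 0.39, adjusted p = 0.000252), and 4.00 without NP replicate 2. FOXA3, a forkhead factor of secretory epithelia and likewise chosen after its values were seen, rose by 2.84 (adjusted p = 0.00315). ERN2, a stress sensor of the endoplasmic reticulum in mucous epithelia, had 0.125, 0.47 and 0.171 TPM in NP and 24.5, 38.4, 28.0 and 27.0 TPM in LT, a log2 change of 7.20 (SE 0.61, adjusted p = 0.000104). CLCA1, a metalloprotease that goblet cells secrete into mucus, had 0.3, 2.91 and 1.55 TPM in NP and 283, 338, 174 and 128 TPM in LT, a log2 change of 7.54 (SE 0.83, adjusted p = 0.00021). Both were lowest in NP replicate 1, and without NP replicate 2 the log2 changes were 7.90 for ERN2 and 8.30 for CLCA1. Among enzymes of mucin sugar chains the directions differed. GCNT3, which branches these chains, was the most abundant member of the list that fell, from 195, 57.5 and 49.2 TPM in NP to 14.6, 18.73, 15.0 and 8.12 TPM in LT, a log2 change of -2.62 (SE 0.54, adjusted p = 0.00367), and -1.56 without NP replicate 1. GALNT6, which starts the chains, and LRRC26, a potassium channel subunit of secretory epithelia, both chosen after their values were seen, rose by 2.63 and 6.64 on the log2 scale, the latter from 0.629 to 2.29 TPM in NP to 121 to 145 TPM in LT.

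The summed TPM of the mucus secretory list was 782 to 1018 in NP and 9418 to 11976 in LT. WFDC2, a secreted antiprotease of mucosal glands, had 184, 1696 and 2425 TPM in NP and 7224, 9386, 5204 and 5547 TPM in LT, a log2 change of 2.60 (SE 0.65, adjusted p = 0.00903), and 3.23 without NP replicate 3. NP replicate 1 was again the lowest by far, and without it the change was 2.09. BPIFB1, a secreted protein of mucosal surfaces chosen after its values were seen, had 12.6, 11.8 and 16.4 TPM in NP and 771, 1143, 675 and 1752 TPM in LT, a log2 change of 6.61 (SE 1.17, adjusted p = 0.00176). The glandular marker EPCAM rose by 0.71 on the log2 scale, from 269 to 312 TPM in NP to 359.6 to 418 TPM in LT, far less than the secretory genes, and the share of mucous cells in the change was not tested. A pair of genes without a name in the table, chosen after their values were seen, also rose: ENSCPOG00000026251 went from 2.11 to 6.63 TPM in NP to 1118 to 1905 TPM in LT and ENSCPOG00000000239 from 64.7 to 184 to 3064 to 5691 TPM.

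**Figure D2:**
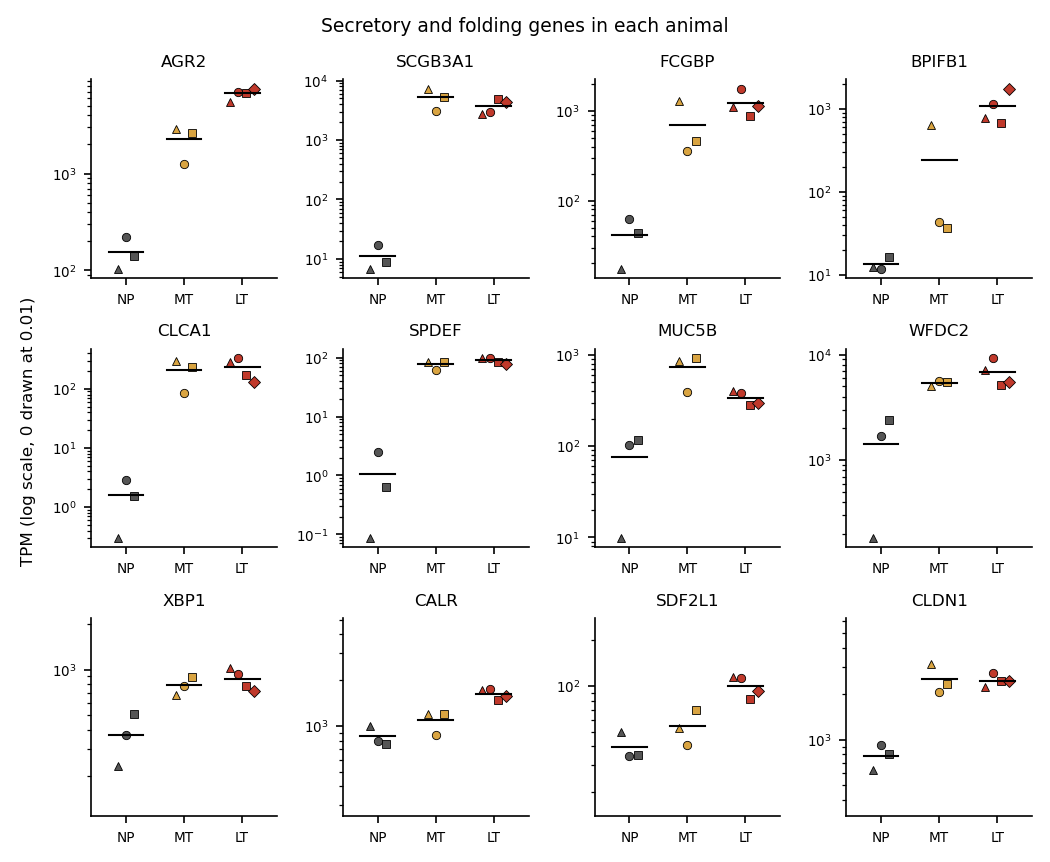
Each panel shows TPM on a log axis for 1 gene in the 3 NP (grey), 3 MT (yellow) and 4 LT (red) animals, with replicate 1 as a triangle, 2 as a circle, 3 as a square and 4 as a diamond, and the stage mean as a line. All 12 genes were higher in every LT animal than in every NP animal, and NP replicate 1 was the lowest NP animal for MUC5B (9.86 TPM) and WFDC2 (184 TPM).

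The folding machinery of the endoplasmic reticulum, through which secreted proteins pass, rose almost as a whole. Of 44 listed genes 41 have a row and 40 were tested, and 34 rose and 1 fell, with a median log2 change of 0.90. The summed TPM was 6310 to 7072 in NP and 9836 to 10882 in LT. Calreticulin (CALR), a chaperone of glycoproteins, had 1002, 797 and 757 TPM in NP and 1720.2, 1747, 1488 and 1580.0 TPM in LT, a log2 change of 1.21 (SE 0.18, adjusted p = 0.000708). Its partner PDIA3, a disulfide isomerase, had 550.4, 493 and 450.3 TPM in NP and 987, 1019.8, 920.0 and 906 TPM in LT, a log2 change of 1.22 (SE 0.16, adjusted p = 0.000385). These rises were near 2-fold and without overlap between the groups. XBP1, the transcription factor of the unfolded protein response, rose by 1.54 (adjusted p = 0.000572) and SDF2L1, a chaperone cofactor, by 1.60 (adjusted p = 0.000698), both chosen after their values were seen. The member that fell was ERO1LB, an oxidase that feeds disulfide bond formation, from 9.92 to 11.2 TPM in NP to 4.67 to 6.05 TPM in LT, a log2 change of -0.74 (SE 0.15, adjusted p = 0.00375).

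Squamous differentiation genes fell more often than they rose. Of 68 listed squamous differentiation genes 50 have a row and 38 were tested, of which 19 fell and 3 rose, with a median log2 change of -2.50. Without NP replicate 1 the counts were 15 and 6 and the median -0.71. The summed TPM of the list was 8266, 2181 and 1021 in the NP animals and 1407 to 3272 in LT, so that NP replicate 1 alone was above the LT range and the others lay within or below it. Involucrin (IVL), a scaffold protein of the cornified envelope, had 118, 30.9 and 10.6 TPM in NP and 0.553, 1.12, 0.257 and 0.185 TPM in LT, a log2 change of -6.42 (SE 0.92, adjusted p = 0.000621). The estimate was -4.89 without NP replicate 1 and -7.08 without LT replicate 2. RHCG, an ammonia channel of stratified epithelia, had 182, 38.6 and 15.9 TPM in NP and 0.419, 0.531, 0.417 and 0.12 TPM in LT, a log2 change of -7.51 (SE 0.98, adjusted p = 0.000418), and -5.81 without NP replicate 1. Suprabasin (SBSN), made in the upper layers, had 172, 40.3 and 8.29 TPM in NP and 0.547, 0.766, 0.825 and 1.79 TPM in LT, a log2 change of -6.03 (SE 0.99, adjusted p = 0.00124), and -4.24 without NP replicate 1. For all 3 genes NP replicate 3 was the lowest NP animal and was still above every LT animal. CRCT1, of the epidermal differentiation cluster, had 235, 45.7 and 11.7 TPM in NP and no read in any LT animal. Against a floor of 3 reads per LT library it was at least 123-fold lower in LT, or at least 36.3-fold without NP replicate 1. By the same reckoning SPRR3, a small proline-rich envelope protein at 2.14 to 35.1 TPM in NP, was at least 46.9-fold lower, or 16.7-fold without NP replicate 1. ENSCPOG00000011645, which has no name, went from 51.6 to 1171 TPM in NP to no read in LT, at least 1192-fold lower, or 379-fold without NP replicate 1. The gene ENSCPOG00000008260, also without a name, fell from 219 to 4262 to 29.1 to 161 TPM, with a log2 change of -4.54 (SE 1.05, adjusted p = 0.00649). Its estimate was -2.80 without NP replicate 1 and -5.40 without LT replicate 4. Others among the 10 largest falls were Q8VI72_CAVPO, from 63.9 to 726 TPM in NP to 0.0759 to 0.983 TPM in LT, a log2 change of -9.54 (SE 1.13, adjusted p = 0.000279), with -7.90 without NP replicate 1 and -10.58 without LT replicate 1. CNFN, of the cornified envelope, NOXO1, an organizer of an NADPH oxidase, and Mcpt3, a mast cell protease, fell with log2 changes of -5.79, -5.57 and -5.59, or -3.87, -4.24 and -3.81 without NP replicate 1.

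Interleukin 1 alpha (IL1A), an alarm cytokine stored in keratinocytes, moved with these genes. It had 403, 89.8 and 23.9 TPM in NP and 1.29, 2.35, 2.17 and 3.70 TPM in LT, a log2 change of -5.98 (SE 0.93, adjusted p = 0.000918), and -4.20 without NP replicate 1. Its antagonist IL1RN had 134, 31.7 and 20.1 TPM in NP and 5.27, 4.40, 12.2 and 8.13 TPM in LT, a log2 change of -2.83 (SE 0.67, adjusted p = 0.00727), and -1.40 without NP replicate 1. IL36A, another epidermal cytokine, was at 0.546 to 14.7 TPM in NP and without a read in LT, at least 25.2-fold lower, or 8.43-fold without NP replicate 1, and its call was lost without NP replicate 2. In NP replicate 1 the agonists and the antagonist were all highest. The protease TMPRSS11D had 293, 68.98 and 28.9 TPM in NP and 1.94, 1.74, 7.13 and 2.61 TPM in LT, a log2 change of -5.06 (SE 0.97, adjusted p = 0.00262), with -3.48 without NP replicate 1 and -5.75 without LT replicate 3. SPINK5, an inhibitor of the skin kallikreins, had 126, 29.1 and 22.2 TPM in NP and 4.69, 7.87, 4.49 and 10.6 TPM in LT, a log2 change of -2.89 (SE 0.81, adjusted p = 0.0152), and its call was lost without NP replicate 1, at -1.52.

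Markers of the basal layer were not called. Keratin 14 (KRT14), the keratin of basal cells, had 2825, 919 and 969.9 TPM in NP and 1430.0, 2253, 2464 and 2803 TPM in LT, and its change of 0.75 (adjusted p = 0.392) was not called, nor was that of 1.62 without NP replicate 1 (adjusted p = 0.084). TP63, the transcription factor of basal cells, had 54.0, 38.2 and 25.5 TPM in NP and 29.0, 39.9, 46.9 and 47.4 TPM in LT, a change of 0.32 that was not called (adjusted p = 0.424), nor was that of 0.73 without NP replicate 1 (adjusted p = 0.0635). DSG3, a desmosomal cadherin of the lower layers, was not called (1.19, adjusted p = 0.333) but was called higher, at 2.82, without NP replicate 1. The groups overlapped for these genes. The 3 members of the squamous list that rose included SERPINB2, an inhibitor of urokinase, with 21.6, 13.7 and 13.9 TPM in NP and 138, 257, 188 and 472 TPM in LT, a log2 change of 4.28 (SE 0.58, adjusted p = 0.000484). KLF4, a factor of epithelial barrier formation, had 51.1, 32.4 and 28.8 TPM in NP and 76.4, 149, 199.95 and 193 TPM in LT, a log2 change of 2.32 (SE 0.43, adjusted p = 0.00222). Of 7 tested keratins 4 rose and 1 fell. The largest rise was that of KRT1, a keratin of differentiating squamous layers chosen after its values were seen, which had 7.35, 2.50 and 0.783 TPM in NP and 25.7, 36.1, 48.8 and 81.3 TPM in LT, a log2 change of 3.97 (SE 1.14, adjusted p = 0.0173). It was 5.27 without NP replicate 1, and its call was lost without NP replicate 2 or 3. KRT7, a keratin of simple and glandular epithelia, rose by 1.65 (adjusted p = 0.00171) from 202 to 442 to 737 to 837 TPM and KRT23 by 1.43 (adjusted p = 0.00234). The keratin that fell was KRT78, of squamous epithelium, with a log2 change of -3.50, or -1.73 without NP replicate 1.

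**Figure D3:**
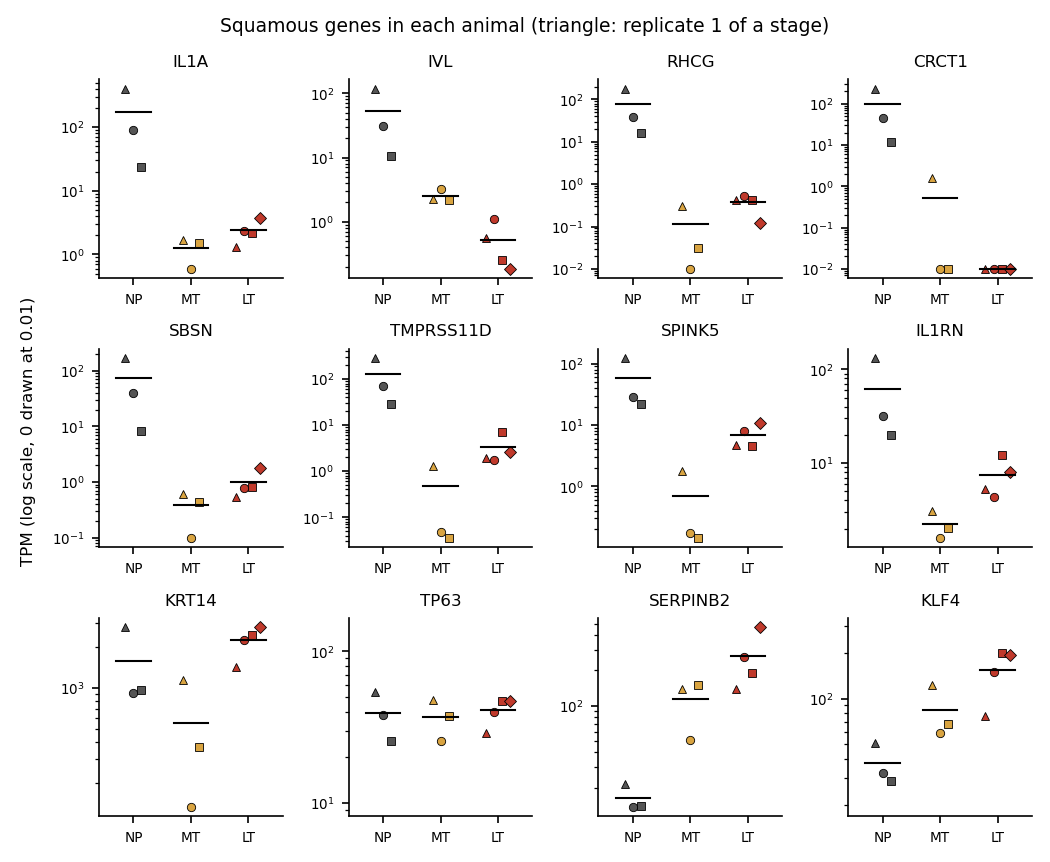
Each panel shows TPM on a log axis for 1 gene in the NP (grey), MT (yellow) and LT (red) animals, with replicate 1 as a triangle, 2 as a circle, 3 as a square and 4 as a diamond, the stage mean as a line, and animals at 0 TPM drawn at 0.01. IL1A, IVL, RHCG, CRCT1, SBSN, TMPRSS11D, SPINK5 and IL1RN are highest in NP replicate 1 and lower in all LT than in all NP animals, KRT14 and TP63 overlap between the stages, and SERPINB2 and KLF4 are higher in all LT animals.

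Epithelial junction genes rose more often than they fell, with 10 rises and 3 falls among 21 tested of 31 listed, or 9 and 1 with a trend on gene length removed from each library. Claudin 1 (CLDN1), a sealing protein of tight junctions, had 633, 922 and 804 TPM in NP and 2206, 2736, 2443 and 2418 TPM in LT, a log2 change of 1.94 (SE 0.17, adjusted p = 0.000104). It was among the 20 genes that gained most TPM. The gap junction genes GJC1 and GJA5, connexins of muscle and vessels, fell, with log2 changes of -1.25 and -1.23, and of 7 tested connexins 3 fell and 1 rose, or 3 and 3 without NP replicate 1. Among 4 tested aquaporins 2 rose. AQP5, a water channel of glands, had 67.1, 66.3 and 47.0 TPM in NP and 172, 285, 381 and 470.0 TPM in LT, a log2 change of 2.73 (SE 0.46, adjusted p = 0.00131). AQP4 had 0.759, 15.3 and 12.9 TPM in NP and 93.0, 97.3, 54.3 and 58.5 TPM in LT, a log2 change of 3.33 (SE 0.68, adjusted p = 0.00361), with NP replicate 1 far below the other NP animals and a change of 2.79 without it. Of 203 tested solute carriers 65 rose and 35 fell, but limma on log2(TPM + 1) called 32 higher and 57 lower. The balance thus depends on the scale, as it does over all tested genes. The median of the list was 0.16 by edgeR, against -0.01 over all tested genes, and -0.11 by limma, against -0.28. The citrate transporter SLC13A2 showed wide spread within LT, with 41.5, 19.7, 3.32 and 1.797 TPM against 0.0245, 0.768 and 0.387 TPM in NP, and its log2 change of 5.77 became 4.81 without LT replicate 1 and 6.67 without NP replicate 2. The sodium-calcium exchanger SLC8A1 fell, from 432 to 789.9 to 227 to 299 TPM, a log2 change of -0.92 (SE 0.17, adjusted p = 0.0022).

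Among receptors of steroid hormones the estrogen receptor fell. ESR1, estrogen receptor alpha, had 121, 315 and 289 TPM in NP and 99.9, 104, 76.7 and 92.3 TPM in LT, a log2 change of -1.05 (SE 0.24, adjusted p = 0.00567). All LT animals were below all NP animals in TPM, as for 40.6% of all tested genes. NP replicate 1 was close to the LT range, and without it the log2 change was -1.33. The progesterone receptor PGR had 29.5, 27.8 and 23.5 TPM in NP and 23.5, 31.3, 30.5 and 35.3 TPM in LT. The groups overlapped, and its log2 change of 0.45 (adjusted p = 0.0473) was called with all animals but not without LT replicate 2, 3 or 4 or NP replicate 2 or 3, so that the call of PGR rested on the full set of animals. FKBP5, a co-chaperone of steroid receptors that is itself a known target of progesterone and glucocorticoid receptors, had 34.9, 61.0 and 24.5 TPM in NP and 123, 133, 219.6 and 166 TPM in LT, a log2 change of 2.31 (SE 0.34, adjusted p = 0.00077). Of 18 tested genes of steroid receptors and their chaperones 5 rose and 7 fell, against 1 and 10 by limma on log2(TPM + 1) and 6 and 4 with a trend on gene length removed. Of 15 tested steroid metabolizing enzymes 4 rose and 1 fell, against 2 and 4 by limma on log2(TPM + 1) and 7 and 1 without NP replicate 1. SULT2B1, a sulfotransferase of cholesterol and hydroxysteroids, rose by 1.95 (adjusted p = 7.08e-05) from 19.7 to 22.4 to 57.2 to 74.2 TPM. The enzyme that fell was DHRS9, a dehydrogenase of retinol and steroids, with a log2 change of -3.92, or -2.38 without NP replicate 1. The oxytocin receptor OXTR, chosen after its values were seen, had 1.74, 3.43 and 1.798 TPM in NP and 3.45, 3.26, 4.30 and 3.79 TPM in LT, a log2 change of 0.99 (SE 0.24, adjusted p = 0.00873), and NP replicate 2 lay within the LT range. The relaxin receptor RXFP1, chosen likewise, had 75.1 to 85.9 TPM in NP and 40.5 to 99.4 TPM in LT, a change of 0.04 that was not called (adjusted p = 0.895).

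The prostaglandin list held a rise of more than 64-fold. PLA2G10 (ENSCPOG00000027338), a secreted phospholipase that frees arachidonic acid for prostaglandin synthesis, had 0.737, 0.629 and 0.672 TPM in NP, on 5 to 8 reads per animal, and 152, 481, 536 and 411 TPM in LT, on 1718 to 6513 reads. The log2 change was 9.44 (standard error 0.96, adjusted p = 0.000165), and the exact permutation test on square-root TPM gave p = 0.0286, the smallest that 3 animals against 4 allow. PTGS2, the inducible cyclooxygenase, had 4.09, 3.82 and 2.93 TPM in NP and 11.02, 9.92, 8.41 and 10.8 TPM in LT, a log2 change of 1.75 (SE 0.20, adjusted p = 0.000243). The groups did not overlap for either enzyme, and the rise of PLA2G10 was far larger. The receptors PTGER2 (for prostaglandin E) and PTGFR (for prostaglandin F), chosen after their values were seen, had 4.19, 10.2 and 9.98 and 1.79, 13.1 and 12.9 TPM in the NP animals. In LT they had 28.2, 27.0, 14.3 and 19.2 and 20.6, 21.6, 19.8 and 20.3 TPM, log2 changes of 1.77 (adjusted p = 0.00422) and 1.51 (adjusted p = 0.0252). In all, 38 genes were listed, 32 have a row and 25 were tested, of which 11 rose and 4 fell, against 6 and 6 by limma on log2(TPM + 1). The balance thus depends on the scale, as it does over all tested genes. The median of the list was 0.36 by edgeR, against -0.01 over all tested genes, and 0.06 by limma, against -0.28. The most abundant riser, PTGES3, a prostaglandin E synthase and HSP90 co-chaperone, had 206 to 259.8 TPM in NP and 208 to 241 TPM in LT. Its log2 change of 0.23 (adjusted p = 0.0272) lost its call without NP replicate 1 or 2 and was 0.0005 with a trend on gene length removed. No direction is therefore given for it. On the TPM scales, which shift all genes down, its change was negative.

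Ligands, a receptor and binding proteins of the insulin-like growth factor axis changed. IGFBP3, which holds IGFs in the blood and matrix, had 525, 2557 and 1627 TPM in NP and 119, 115, 175 and 152 TPM in LT, a log2 change of -3.13 (SE 0.48, adjusted p = 0.000849). IGFBP4, an inhibitor of IGF action, had 566, 635 and 806 TPM in NP and 2137, 1965, 3207 and 1847 TPM in LT, a log2 change of 2.08 (SE 0.24, adjusted p = 0.000245). The order of these genes was reversed: in the NP animals other than replicate 1 IGFBP3 was above IGFBP4, and in all LT animals it was below. The growth factor IGF1 had 268, 287 and 346 TPM in NP and 412, 385, 534 and 355 TPM in LT, a log2 change of 0.79 (SE 0.15, adjusted p = 0.00294). The receptor IGF1R fell from 27.1 to 32.4 to 15.0 to 18.9 TPM, a log2 change of -0.51 (SE 0.12, adjusted p = 0.00577), but was not called with a trend on gene length removed from each library (-0.22, adjusted p = 0.147). The ligand IGF2 fell from 142 to 242 to 100.5 to 142 TPM, a log2 change of -0.43 (SE 0.14, adjusted p = 0.0348), a call lost without LT replicate 1, 2 or 4 or NP replicate 2 or 3. Of 17 tested genes of the axis 7 rose and 5 fell, against 7 and 7 by limma on log2(TPM + 1) and 7 and 3 with the length trend removed. IGFBP5, the most abundant of them in LT, had 2099, 1344 and 1395 TPM in NP and 4015, 3224, 2546 and 1752 TPM in LT, a log2 change of 1.10 (SE 0.31, adjusted p = 0.0151), and its call was lost without NP replicate 2 or NP replicate 3.

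Other growth factor genes changed singly. FGFBP1 (ENSCPOG00000021732), a carrier that frees fibroblast growth factors from the matrix, had 0.773, 0.487 and 0.651 TPM in NP and 186, 345, 366 and 575 TPM in LT, a log2 change of 9.42 (SE 0.96, adjusted p = 0.00016), a rise as large as that of PLA2G10. Of 17 tested FGF genes 4 rose and 5 fell, near the shares over all tested genes of 23.6% and 25.8%. The EGF receptor ligand TGFA had 10.6, 12.2 and 7.51 TPM in NP and 38.6, 52.2, 35.7 and 42.4 TPM in LT, a log2 change of 2.35 (SE 0.32, adjusted p = 0.000484). The receptors ERBB4 and ERBB3 moved apart, with ERBB4 up by 1.83 (adjusted p = 0.0163) and ERBB3 at -0.91 (adjusted p = 0.000675). Of 12 tested EGF family genes 4 rose and 3 fell, against 4 and 4 by limma on log2(TPM + 1). Members of the TNF family also moved apart. TNFSF11 (RANKL), a known progesterone target in epithelia, had 0.78, 1.44 and 1.73 TPM in NP and 20.2, 28.5, 30.6 and 24.4 TPM in LT, a log2 change of 4.62 (SE 0.28, adjusted p = 4.13e-05). TNFSF10 (TRAIL), a ligand that can trigger apoptosis, had 625, 839.6 and 1071 TPM in NP and 134, 127, 108 and 89.1 TPM in LT, a log2 change of -2.58 (SE 0.21, adjusted p = 9.8e-05). The groups did not overlap for either ligand. ENPP2 (autotaxin), which makes the signal lipid lysophosphatidic acid and was chosen after its values were seen, rose from 225 to 332 to 1365 to 2655 TPM, a log2 change of 3.09 (SE 0.37, adjusted p = 0.000301).

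**Figure D4:**
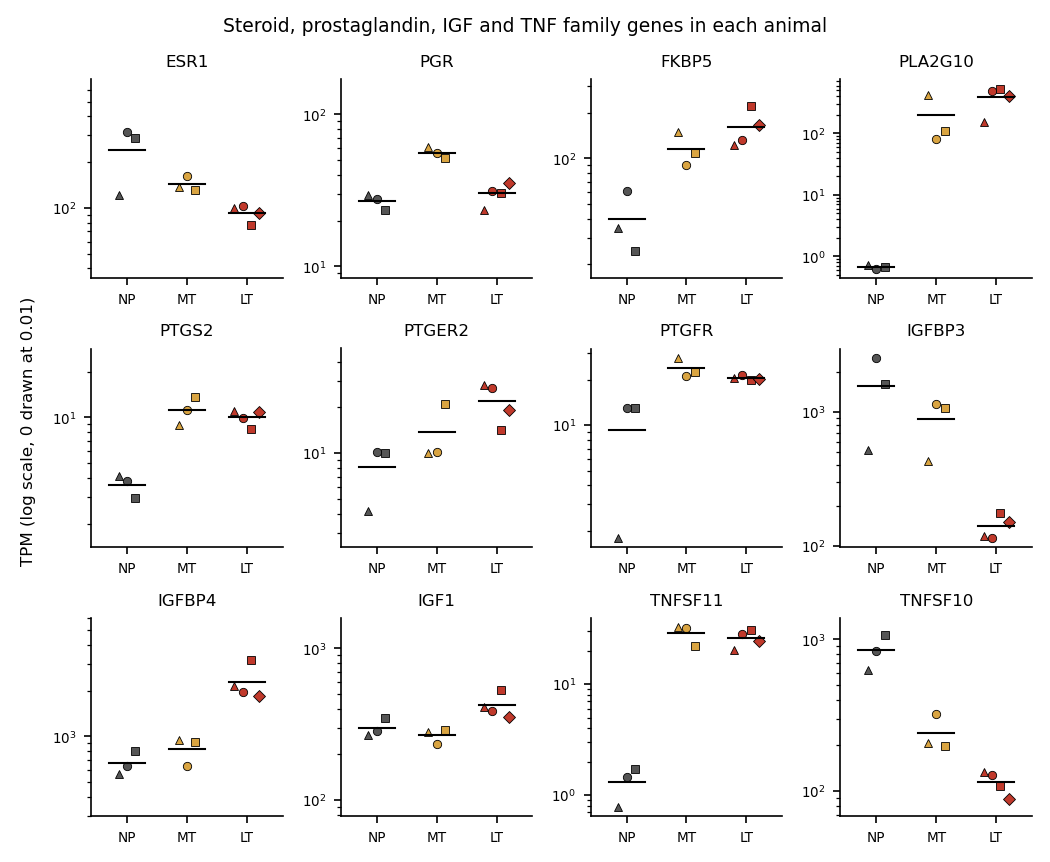
Each panel shows TPM on a log axis for 1 gene in the NP (grey), MT (yellow) and LT (red) animals, with replicate 1 as a triangle, 2 as a circle, 3 as a square and 4 as a diamond, and the stage mean as a line. PLA2G10 rises from under 1 TPM in NP to 152 to 536 TPM in LT, ESR1, IGFBP3 and TNFSF10 are lower in all LT than in all NP animals, and PGR overlaps between NP and LT.

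WNT pathway genes fell more often than they rose. Of 53 listed genes, all with a row, 34 were tested, and 19 fell and 2 rose, or 17 and 4 without NP replicate 1, with a median log2 change of -0.50. The summed TPM was 1243 to 1325 in NP and 764 to 862 in LT. RSPO3, an R-spondin that amplifies WNT signals, had 115, 257 and 275 TPM in NP and 52.4, 25.2, 19.7 and 12.1 TPM in LT, a log2 change of -2.67 (SE 0.47, adjusted p = 0.00168). RSPO1, chosen after its values were seen, had 7.04, 8.94 and 15.5 TPM in NP and 0.525, 0.196, 0.0488 and 0.105 TPM in LT, a log2 change of -5.25 (SE 0.63, adjusted p = 0.000286), and -6.06 without LT replicate 1. For both R-spondins all LT animals were below all NP animals. The antagonists SFRP4 and, chosen after their values were seen, WIF1 and FRZB fell with log2 changes of -2.48, -3.45 and -2.51, and the pathway target AXIN2, chosen likewise, with -0.79 (adjusted p = 0.00413). SFRP1, another secreted antagonist, was 1 of the 2 members that rose, from 98.4, 146 and 129.8 TPM in NP to 159, 160.5, 267 and 217 TPM in LT, a log2 change of 1.00 (SE 0.26, adjusted p = 0.0104). The other was the ligand WNT2B, at 0.74 (adjusted p = 0.00128).

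In the TGF-beta and BMP pathway 17 of 44 tested genes (57 listed, all with a row) fell and 7 rose, against 25 and 2 by limma on log2(TPM + 1), with a median log2 change of -0.25. The summed TPM was 2337 to 2590 in NP and 1326 to 1579 in LT. The BMP antagonist NBL1 had 565, 681 and 793 TPM in NP and 209, 149.6, 143 and 116 TPM in LT, a log2 change of -1.84 (SE 0.18, adjusted p = 0.000137). CHRDL2, also a BMP antagonist, had 578, 388 and 470.1 TPM in NP and 225, 198, 142 and 158 TPM in LT, a log2 change of -1.14 (SE 0.21, adjusted p = 0.00235). ID1, a known target of BMP signals, rose, from 41.2, 102 and 85.3 TPM in NP to 118, 149.8, 121 and 130.1 TPM in LT, a log2 change of 1.09 (SE 0.27, adjusted p = 0.00813). The latent TGF-beta binding protein LTBP1, counted with the elastic fibre genes, fell from 223 to 386 to 76.9 to 143 TPM, a log2 change of -1.22 (SE 0.21, adjusted p = 0.00172).

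HOX genes, which hold the positional identity of the reproductive tract, fell together. Of 33 listed genes with a row 18 were tested, and 12 fell and 1 rose, with a median log2 change of -1.07 against -0.01 over all genes. The summed TPM was 404 to 481 in NP and 196 to 200 in LT, so that the 4 LT animals were within a few TPM of each other. HOXA11, of the uterus and cervix, had 85.8, 94.9 and 110.0 TPM in NP and 36.3, 31.6, 15.5 and 11.3 TPM in LT, a log2 change of -1.75 (SE 0.34, adjusted p = 0.00295). HOXA13, of the cervix and vagina, had 78.5, 92.6 and 83.0 TPM in NP and 33.5, 28.5, 28.4 and 26.7 TPM in LT, a log2 change of -1.24 (SE 0.12, adjusted p = 0.000121). The member called higher, HOXB7, had 31.6 to 40.6 TPM in NP and 34.1 to 39.9 TPM in LT, and its log2 change of 0.29 (adjusted p = 0.04995) lost its call without any single animal other than LT replicate 1 and was near 0 and negative on the TPM scales. HOXA9, chosen after its values were seen, fell with a log2 change of -1.88 (adjusted p = 0.000277). The stromal receptor PDGFRA, a marker of fibroblasts, also fell, at -0.89 (adjusted p = 0.00809), while the stromal markers COL1A1 and VIM were not called, though VIM was called higher, at 0.57, without NP replicate 1. The stromal marker LUM (lumican) was called higher, from 174 to 245 to 179 to 290.2 TPM with overlap, a log2 change of 0.56 (SE 0.20, adjusted p = 0.0383), and the call was lost without LT replicate 3 or 4 or NP replicate 1 or 2. Whether a smaller share of some stromal cells goes with these falls was not tested.

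The collagen network itself showed no large net change in its most abundant chains. COL1A1 had 7443, 4531 and 4231 TPM in NP and 6229, 4464, 4536 and 3992 TPM in LT, a log2 change of 0.09 (standard error 0.33) that was not called (adjusted p = 0.837). COL1A2 had 2931, 1536 and 1335 TPM in NP and 2546, 1896, 2023 and 1705 TPM in LT, a change of 0.33 (adjusted p = 0.468). Both were highest in NP replicate 1, and without it COL1A2 was called higher in LT, at 0.87. Of 29 tested collagen chains (37 listed, all with a row) 11 fell and 1 rose, or 12 and 3 without NP replicate 1 and 17 and 0 by limma on log2(TPM + 1), with a median of -0.56, or -0.23 without NP replicate 1 and -0.25 with a trend on gene length removed. The chain that rose was COL8A1 (1.37, adjusted p = 0.0438), whose call was lost without LT replicate 1, 2 or 4 or NP replicate 2 or 3. COL12A1, of the surface of collagen fibrils, fell from 372 to 456.4 to 66.3 to 235 TPM, a log2 change of -1.30 (SE 0.35, adjusted p = 0.0129), but was not called with the length trend removed (-0.84, adjusted p = 0.0611). COL15A1, of basement membrane zones, had 344, 236 and 269 TPM in NP and 117, 81.1, 76.0 and 66.5 TPM in LT, a log2 change of -1.46 (SE 0.22, adjusted p = 0.000713). The transmembrane collagen COL23A1, chosen after its values were seen, went from 14.1 to 36.0 to 0.698 to 2.23 TPM, a log2 change of -3.64 (SE 0.42, adjusted p = 0.000252).

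Of 26 tested enzymes of collagen processing and crosslinking 9 rose and 2 fell, against 6 and 7 by limma on log2(TPM + 1). PCOLCE, which enhances the cleavage of procollagen, had 226, 194 and 209 TPM in NP and 478, 354, 511 and 331 TPM in LT, a log2 change of 1.28 (SE 0.23, adjusted p = 0.00207). LOX, the lysyl oxidase that crosslinks collagen, chosen after its values were seen, had 24.3 to 31.1 TPM in NP and 14.2 to 28.8 TPM in LT and was not called (0.09, adjusted p = 0.834). Among 27 tested matrix proteases and their inhibitors 5 rose and 8 fell, near the background. MMP11 (stromelysin 3) had 75.0, 72.5 and 181 TPM in NP and 3.29, 4.76, 3.03 and 3.93 TPM in LT, a log2 change of -4.56 (SE 0.52, adjusted p = 0.000243), the largest fall of the list. The gelatinase MMP2 had 485, 826 and 1059.7 TPM in NP and 1364, 829, 1116 and 629.9 TPM in LT, with overlap, and was not called (0.63, adjusted p = 0.0879), though it was called higher without LT replicate 4 (0.81) or NP replicate 3 (0.89). The inhibitor TIMP1 had 239.6, 195 and 193 TPM in NP and 420.1, 312, 427 and 322 TPM in LT, a log2 change of 1.10 (SE 0.19, adjusted p = 0.00167).

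Proteoglycans, elastic fibre genes and matricellular proteins were called at shares near or below those over all genes on the TMM scale. Of 27 tested proteoglycans 7 rose and 8 fell, against 3 and 12 by limma on log2(TPM + 1). The leucine-rich proteoglycans biglycan (BGN), osteoglycin (OGN) and, chosen after its values were seen, keratocan (KERA) fell, with log2 changes of -0.96, -0.81 and -3.13, and LUM (above) and PRELP, of the same family, were called higher, PRELP at 0.67 (adjusted p = 0.0247) with a call lost without LT replicate 3 or NP replicate 1 or 3. Keratocan went from 35.3, 126 and 90.0 TPM in NP to 13.4, 11.4, 3.72 and 2.19 TPM in LT. Perlecan (HSPG2), of basement membranes, fell from 76.1 to 109.7 to 49.6 to 58.5 TPM, a log2 change of -0.48 (SE 0.18, adjusted p = 0.0459), but was 0.08 and not called with the length trend removed, and its call was lost without any single animal other than NP replicate 3. Of 14 tested elastic fibre genes 2 rose and 4 fell, and EFEMP1 (fibulin 3) rose from 75.8, 62.1 and 49.3 to 161, 159.6, 208 and 199 TPM, a log2 change of 1.82 (SE 0.22, adjusted p = 0.000278). Of 20 tested matricellular proteins 3 rose and 4 fell, or 5 and 2 without NP replicate 1. Thrombospondin 2 (THBS2), which limits vessel growth, had 31.6, 49.2 and 66.5 TPM in NP and 109, 81.2, 136 and 133 TPM in LT, a log2 change of 1.55 (SE 0.39, adjusted p = 0.00908), and THBS4 rose by 1.43. COMP, of the same family and chosen after its values were seen, went from 10.3 to 14.1 to 35.6 to 66.7 TPM, a log2 change of 2.37 (SE 0.32, adjusted p = 0.000493). Periostin (POSTN), a matricellular protein of collagen assembly chosen likewise, fell from 4.56 to 19.8 to 0.177 to 0.467 TPM, a log2 change of -4.74 (SE 0.53, adjusted p = 0.000225), and -4.09 without NP replicate 3. Of 15 tested hyaluronan genes 3 rose and 4 fell, also near the shares over all tested genes of 23.6% and 25.8%. The synthase HAS3, chosen after its values were seen, was turned off, from 3.05, 3.49 and 3.77 TPM in NP to 0.753, 0.352, 0.396 and 0.479 TPM in LT, a log2 change of -2.50 (SE 0.26, adjusted p = 0.000186), while HAS2, the synthase known from cervical ripening in mice, chosen likewise, had 3.43 to 3.66 TPM in NP and 2.82 to 7.41 TPM in LT and was not called (0.77, adjusted p = 0.0919), though it was called higher, at 1.00, without LT replicate 1. LYVE1, a hyaluronan receptor of lymphatic vessels and macrophages, rose from 29.2, 21.8 and 21.0 to 85.6, 58.3, 79.7 and 91.2 TPM, a log2 change of 1.99 (SE 0.21, adjusted p = 0.000201).

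The calprotectin genes rose. S100A8, a subunit of the antimicrobial complex calprotectin, had 2216, 2661 and 3709 TPM in NP and 6993, 10799.8, 7697 and 10711 TPM in LT, a log2 change of 1.97 (SE 0.33, adjusted p = 0.00144). Its partner S100A9 had 2236, 3318 and 4514 TPM in NP and 9259.9, 8407, 7062 and 7294 TPM in LT, a log2 change of 1.56 (SE 0.19, adjusted p = 0.000315). Both are made by neutrophils and by squamous epithelia. Of 41 listed leukocyte markers 32 have a row and 25 were tested. Of these 6 rose and 7 fell, near the shares over all tested genes of 23.6% and 25.8%. Without NP replicate 1 the counts were 6 and 12, where 26.2% of all tested genes rose and 26.8% fell. The median log2 change was -0.64, and -0.14 without NP replicate 2. The summed TPM of the 32 genes was 4829 to 8882 in NP and 15364 to 19630 in LT, but without S100A8 and S100A9 it was 377 to 923 in NP and 411 to 605 in LT. This overlap came from NP replicate 1, at 377, while the other NP animals, at 923 and 659, were above every LT animal. The pan-leukocyte marker PTPRC (CD45) had 8.72, 23.4 and 14.04 TPM in NP and 9.57, 6.18, 6.73 and 5.08 TPM in LT, a log2 change of -0.84 (SE 0.27, adjusted p = 0.0293), a call lost without LT replicate 2, 3 or 4 or NP replicate 2. KIT, a receptor of mast cells, had 27.3, 92.3 and 50.6 TPM in NP and 19.8, 25.4, 14.2 and 12.1 TPM in LT, a log2 change of -1.34 (SE 0.34, adjusted p = 0.00954). AIF1, of macrophages, was called lower (-0.64, adjusted p = 0.049), a call lost without LT replicate 2, 3 or 4 or NP replicate 2 or 3. CD163 and CD14, markers of macrophages and monocytes chosen after their values were seen, rose by 2.97 (adjusted p = 0.000918) and 1.83 (adjusted p = 0.00132), CD163 from 5.18, 4.19 and 3.59 TPM in NP to 20.7, 13.0, 47.3 and 30.2 TPM in LT. CSF3R, the receptor for the granulocyte growth factor, chosen likewise, went from 1.70, 3.68 and 3.65 to 27.3, 16.9, 9.85 and 8.78 TPM, a log2 change of 2.69 (SE 0.43, adjusted p = 0.00103). The scavenger receptor MARCO, of macrophages and not in the list, had 9 reads over the NP animals and 1555 over the LT animals, a ratio of 125 with a 95% counting interval of 65.6 to 274, and LT replicate 1 was the highest, at 21.6 TPM.

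Of 52 tested chemokine and interleukin genes 11 rose and 17 fell, beside 23.6% and 25.8% over all tested genes. CXCL17, a chemokine of mucosal epithelia, had 10.2, 157 and 158 TPM in NP and 353, 438, 415 and 384 TPM in LT, a log2 change of 2.23 (SE 0.66, adjusted p = 0.0195). CXCL14, chosen after its values were seen, had 6.94, 134 and 193 TPM in NP and 2.92, 4.81, 1.94 and 0.419 TPM in LT, a log2 change of -5.09 (SE 0.98, adjusted p = 0.00264), and -4.41 without NP replicate 3. For both genes NP replicate 1 was far below the other NP animals, and without it the changes were 1.70 and -5.64. Interleukin 8 (IL8), a chemokine for neutrophils chosen likewise, fell from 265, 69.1 and 32.6 to 6.55, 4.46, 11.9 and 4.25 TPM, a log2 change of -3.95 (SE 0.85, adjusted p = 0.00462), and -2.52 without NP replicate 1, in which it was highest. Of 24 tested interferon-stimulated and antigen presentation genes 14 fell and none rose, with a median of -0.84, and without NP replicate 1 10 fell and 1 rose, with a median of -0.39. ISG15 had 865, 212 and 59.95 TPM in NP and 80.6, 64.2, 46.1 and 39.7 TPM in LT, and its call was lost without NP replicate 1, at -0.87. IRF1, chosen after its values were seen, fell in all LT animals and irrespective of that animal, from 52.4, 65.5 and 75.0 to 33.7, 33.3, 27.3 and 20.8 TPM, a log2 change of -0.86 (SE 0.15, adjusted p = 0.00155). Of 19 tested complement genes 8 rose and 2 fell, against 4 and 2 by limma on log2(TPM + 1) and 6 and 3 without NP replicate 1. With all animals those that fell were C8G (-2.42) and CD46 (-1.51), both under 10 TPM. C1QB, made by macrophages, rose from 75.0 to 91.7 to 125 to 199 TPM (1.23, adjusted p = 0.00109).

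Endothelial markers fell as a group, with 16 falls and 1 rise among 22 tested of 26 listed genes and a median log2 change of -0.80. VE-cadherin (CDH5) had 33.9, 46.3 and 44.4 TPM in NP and 22.4, 16.2, 14.7 and 14.2 TPM in LT, a log2 change of -1.001 (SE 0.15, adjusted p = 0.000916). The angiopoietin pathway receptor TIE1, chosen after its values were seen, fell with a log2 change of -1.35 (adjusted p = 0.000272). The member that rose, MMRN1, is known from lymphatic vessels and platelets, at 0.64 (adjusted p = 0.00824). Smooth muscle genes all had positive changes, but only 2 of 21 were called. The actin ACTG2 had 9985, 2408 and 1249 TPM in NP and 5964, 5017, 15686 and 16313 TPM in LT and was not called (1.46, adjusted p = 0.132). Without NP replicate 1, which held most of the NP signal, ACTG2 was called higher at 2.94, and so were 16 of 21 smooth muscle genes. Of 10 tested nerve markers 2 rose and 3 fell, against 1 and 5 by limma on log2(TPM + 1). TUBB3, a tubulin of neurons, rose from 39.7, 28.6 and 33.0 to 116, 189.6, 232 and 310.1 TPM, a log2 change of 2.93 (SE 0.67, adjusted p = 0.00589), while the neuronal filament PRPH fell with a log2 change of -2.50. Of 7 tested skeletal muscle markers and 2 tested red blood cell genes none was called. Without NP replicate 1, however, 1 skeletal muscle marker was called higher, and by limma on log2(TPM + 1) 1 was called lower.

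Genes of DNA replication and cell division rose modestly. Of 47 tested replication genes (55 listed) 27 rose and 0 fell, with a median log2 change of 0.78, and of 56 tested mitosis genes (70 listed) 19 rose and 0 fell, with a median of 0.71. By limma on log2(TPM + 1) 15 replication genes rose and 2 fell and 8 mitosis genes rose and 0 fell, with medians of 0.36 and 0.40. The stages overlapped in summed TPM, at 755 to 1099 in NP and 964 to 1474 in LT for replication genes. For mitosis genes the sums were 595 to 859 in NP and 758 to 1116 in LT. PCNA, the sliding clamp of replication, had 70.6, 96.0 and 104 TPM in NP and 169, 143, 112 and 108 TPM in LT, a log2 change of 0.86 (SE 0.16, adjusted p = 0.00259). CCNE2, a cyclin of the entry into replication chosen after its values were seen, rose from 6.78, 11.7 and 7.14 to 22.97, 22.7, 25.1 and 33.1 TPM, a log2 change of 1.92 (SE 0.36, adjusted p = 0.00249), and CDC25B, a phosphatase of the entry into mitosis, by 1.14 (adjusted p = 0.000248). The kinetochore gene SPC24 rose from 6.91 to 10.9 to 13.8 to 30.3 TPM, a log2 change of 1.53 (SE 0.36, adjusted p = 0.00722). Of 18 tested immediate early genes 5 rose and 1 fell, against 3 and 4 by limma on log2(TPM + 1) and 8 and 1 without NP replicate 1. FOS had 37.9, 26.4 and 28.8 TPM in NP and 74.5, 158, 133 and 161 TPM in LT, a log2 change of 2.36 (SE 0.35, adjusted p = 0.000696), and EGR3 fell with a log2 change of -1.56.

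Most genes of the respiratory chain and of glycolysis rose. Of 59 tested nuclear-encoded genes of the respiratory chain (61 listed) 55 rose and 0 fell, by small steps with a median log2 change of 0.59. By limma on log2(TPM + 1) 32 rose and 1 fell. COX8A, a subunit of cytochrome oxidase, had 464, 533 and 512 TPM in NP and 807, 761, 809 and 736 TPM in LT, a log2 change of 0.92 (SE 0.07, adjusted p = 9.36e-05). Of 17 tested glycolysis genes 10 rose and 0 fell, with a median of 0.90 and a summed TPM of 3228 to 4231 in NP and 5482 to 8369 in LT. Lactate dehydrogenase A (LDHA), chosen after its values were seen, had 356, 273 and 295 TPM in NP and 669, 839.7, 1212 and 1007 TPM in LT, a log2 change of 1.88 (SE 0.28, adjusted p = 0.000713). ALDOC, an aldolase chosen likewise, rose from 10.4 to 33.5 to 74.4 to 136 TPM, and GAPDH, often used as a constant reference, rose by 1.26 (adjusted p = 0.00133). Of 20 tested cholesterol synthesis genes 4 rose, and all 20 were called higher without NP replicate 1, in which they were high. For the 56 tested cytosolic ribosomal protein genes the median was 0.09 and 10 rose and 0 fell, but 3 were higher and 10 were lower once the length trend was removed, and no direction is given for them. RPS15A, at 0.27 (adjusted p = 0.0365), was negative on the TPM scales, and its call was lost without LT replicate 1, 2 or 3 or NP replicate 1 or 2.

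Gene length moved with the fold change. In 5 classes of equal size from short to long genes the median log2 change was 0.18, 0.12, 0.01, -0.07 and -0.26. With this trend removed from each library, 2882 genes were higher and 2784 lower, and 2438 and 2508 of the genes called before were called again in the same direction. The median of the collagen chains, which are long, was then -0.25, that of the respiratory chain genes, which are short, 0.40 with 47 of 59 higher, that of the mucus secretory genes 2.36, that of the HOX genes -1.20 and that of the endothelial markers -0.69 with 13 of 22 lower. Of the genes named above, EEF2, FN1, LUM, PTPRC, HOXB7, PTGES3 and RPS15A also lost their call with the length trend removed. The part of RNA quality or gene length in these lists was not tested further.

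**Figure D5:**
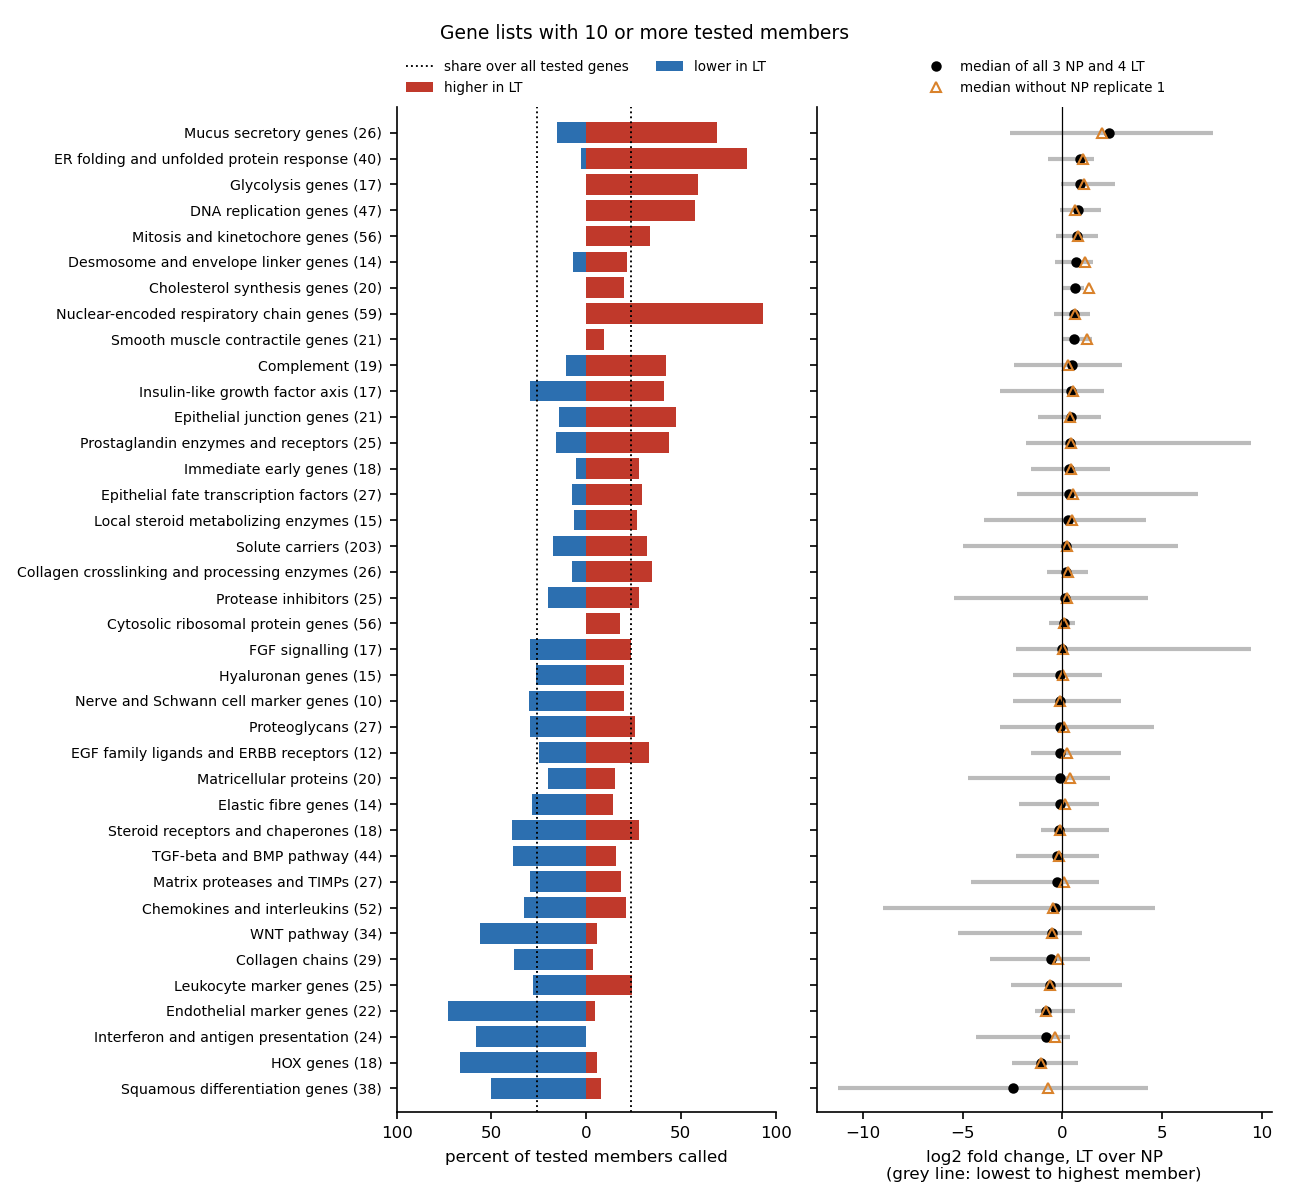
For each of 38 lists with 10 or more tested members (number in brackets), the left panel shows the percentage of tested members called higher (red, to the right) and lower (blue, to the left), with dotted lines at the shares over all tested genes, 23.6% and 25.8%. The right panel shows the median log2 change with all animals (black) and without NP replicate 1 (orange triangles) over a grey line from the lowest to the highest member, and squamous, smooth muscle and cholesterol synthesis genes move most when that animal is left out.

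The mid-pregnant animals place the net change in time, as a description on the TMM scale. Of the 772 genes called more than 2-fold higher in LT, 539 (69.8%) had their MT mean between the NP and the LT mean, 156 (20.2%) had passed the LT mean and 77 (9.97%) lay on the far side of NP. The median gene had completed 68.1% of its log2 change by MT. Of the 1074 genes more than 2-fold lower, 841 (78.3%) lay between, 138 (12.8%) were past the LT mean and 95 (8.85%) on the far side of NP, and the median gene had completed 42.1%. Rises were thus nearer to their end at mid-pregnancy than falls. SCGB3A1, at an MT mean of 5269 TPM, was already above its LT range, and SPDEF, at 76.8 TPM, was just below the lowest LT animal, while AGR2 at 2255 TPM and IGFBP4 at 831 TPM rose further. IVL and IL1A were already low at MT, at 2.55 and 1.27 TPM. IGFBP3 at 882 TPM and HOXA11 at 70.1 TPM were nearer to NP than to LT.

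The net view hides genes that peaked or dipped between. The summed TPM of the mitosis genes dipped to 242 to 394 in MT, against 595 to 859 in NP and 758 to 1116 in LT. SPOCK2, a testican of the matrix, had a mean of 122 TPM in MT against 26.2 to 88.3 TPM in NP and 5.29 to 10.7 TPM in LT, a log2 change of -2.50 (SE 0.41, adjusted p = 0.00127) from NP to LT. The proteoglycan CSPG5, at 17.9 TPM in MT, fell from 3.44 to 4.73 in NP to 0.867 to 1.86 TPM in LT, a log2 change of -1.24 (SE 0.31, adjusted p = 0.00995). The amino acid transporter SLC36A2 peaked at 29.1 TPM in MT and kept a net rise from 0.546 to 1.41 to 1.99 to 10.7 TPM, a log2 change of 2.67 (SE 0.55, adjusted p = 0.00368). NXPE2, which has no mid-pregnancy peak of that size, had 6 reads over the NP animals and 2318 over the LT animals, a ratio of 279 with a 95% counting interval of 128 to 762. Among the serpins, a multigene family whose close copies can share reads, A1AS_CAVPO had 1 read over the NP animals and 1590 over the LT animals, most of them in LT replicate 1 at 39.8 TPM, and its call was lost without NP replicate 2. Its log2 change was 9.70 (SE 2.65, adjusted p = 0.0139). With single animals left out it ranged from 7.80 to 11.5, the latter without NP replicate 1. SPA3K_CAVPO, from the same family, had 0.181 to 0.484 TPM in NP and 242, 64.9, 6.59 and 2.09 TPM in LT, a log2 change of 8.22 (SE 2.16, adjusted p = 0.0117), and 6.57 without LT replicate 1.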

How the data were processed

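Total RNA of the cervix was sequenced as strand-specific, poly(A)-selected libraries with single 75 bp reads. Per the labels and the methods of the study, reads were called with CASAVA 1.8.2, aligned with TopHat2 to the guinea pig genome (cavPor3, Ensembl) and counted per gene with HTSeq 0.5.4p1. The authors deposited, for 25028 Ensembl genes and each animal, the raw read count and the TPM value made from it. Names of genes are those of the table (20251 genes) plus 44 aliases. No genome of this build was used here, so no coordinates are given, and COL3A1 was not analysed here.

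From these files, the 12645 genes whose mean reached 3 TPM in NP, MT or LT were tested for LT against NP with edgeR 4.0.16 (glmQLFit, TMM factors 0.927 to 1.134, R 4.3.3) on the deposited counts, in 1 fit over all 10 animals with stage as the only term. The standard error is the log2 change divided by the root of its F statistic. The study tested single genes on square-root TPM, and that scale was kept as a two-sided exact permutation test. Alternatives used DESeq2 1.42.0, limma 3.58.1 on TPM with pseudocounts of 1 and 0.1, other factors, other filters, thinned counts, a fit with the trend on gene length removed from each library, a replicate block and each animal left out. On simulated counts for the 12645 genes of this comparison edgeR recovered 69.5% of 200 planted changes, 10% of those at 1.5-fold, 68% at 2-fold and 100% at 4-fold, with 4.14% false calls, and DESeq2 78% with 22.4% false calls. The simulation held few changes, as many up as down, with independent noise, no length trend and no animal that stood apart. Its rates of recovery and false calls therefore need not hold for these data. Intervals on sums of reads are exact and cover counting error only. Nothing in the labels ties animals to batches.

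The 46 gene lists, the rule for named genes and the choice of comparison were made with earlier results of these data known. The rule names, among called and non-overlapping genes above 10 TPM, the 10 largest rises and the 10 largest falls, the 5 with the largest gain and the 5 with the largest loss of TPM, up to 2 risers and 2 fallers of highest level in each list, genes that the study names, and cell type markers. Of 199 genes it names, 127 are described, and the others are counted with them under the alternatives. Lists are described by counts beside the background and were not tested. Between NP and LT, animals of the same replicate number did not deviate together (correlations of -0.298, 0.159 and -0.19). Between NP and MT the correlations were 0.26, 0.148 and 0.0855, and between MT and LT -0.138, -0.0114 and 0.081. So few values cannot settle whether the numbers pair the animals.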

Additional observations from a re-analysis of the deposited data

Results flagged for a closer look

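With 4 LT animals, 286 values (240 genes that the rule names or the text prints and 46 summed lists) were examined for an animal far from the other LT animals, and 10 stood out by Dixon's ratio at its 95% critical value. About 1 in 20 such groups would by chance, so fewer stood out than chance gives. LT replicate 1 had 21.6 TPM of MARCO, against 5.98 to 8.56 TPM in the other LT animals, and all LT animals remained above NP. LT replicate 3 had 7.13 TPM of TMPRSS11D, against 1.74 to 2.61 TPM. LT replicate 4 had 161 TPM of ENSCPOG00000008260, against 29.1 to 47.1 TPM. LT replicate 3 had 455 TPM of IL1R2, a decoy receptor of interleukin 1, against 273 to 292 TPM, and 2557 TPM of the ribosomal gene RPL12, against 2192 to 2228 TPM. LT replicate 1 had 35.7 TPM of AIF1, against 21.8 to 23.4 TPM, and 4.28 TPM of VSIG8, against 47.5 to 51.1 TPM. LT replicate 4 had 23.04 TPM of KIF22, a kinesin of mitosis, against 34.9 to 37.1 TPM. LT replicate 1 had a summed TPM of immediate early genes of 1012, against 1374 to 1427, and of epithelial fate transcription factors of 917, against 1156 to 1170. Groups of 3 animals, as in NP, were not examined in this way.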

How the results depend on the processing

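The number of genes higher in LT (2990) was 1765 with library sizes alone as the scale, 1392 and 1417 by limma on log2(TPM + 0.1) and log2(TPM + 1), and 1409 by limma on square-root TPM. The number lower in LT (3257) was 5291, 5301 and 5276 by the same limma fits. Both numbers stayed within 1.5 times under the other alternatives, for instance 3311 and 3472 by DESeq2 and 2655 and 3499 with upper-quartile factors. With the replicate block, 2426 genes were higher and 2512 lower. Whether the replicate numbers pair the animals is not known, so that block cannot be read as a test of pairing. Leaving out single animals, the numbers ranged from 2431 to 3309 and from 2452 to 3383. Genes turned on numbered 317 and genes turned off 725 with TPM rescaled by the TMM factors, and 74 and 327 where every animal had to be on its side of 3 TPM. They ranged from 219 to 262 and from 863 to 1025 with each animal left out. Of 216 called genes that the rule names or the text prints, 145 kept call and direction under every alternative model and animal left out, and the exact permutation test passed for 161. Many of these genes were picked for their call and lack of overlap, or after their values were seen. These numbers are therefore no independent check. Of the called genes that lost call or direction, 4 changed sign, none of them called after the change. PTGES3, RPS15A and HOXB7, called higher with all animals, were at -0.0599, -0.0220 and -0.00757 by limma on log2(TPM + 0.1), at -0.0597, -0.0220 and -0.00752 on log2(TPM + 1), and at -0.33, -0.33 and -0.021 on square-root TPM, by limma and in the permutation test. HSPG2, called lower, was at 0.077 with the length trend removed. The median of 46 lists moved by more than the spread between replicates for 25 lists with limma on log2(TPM + 1), for 13 with library sizes alone, for 10 without NP replicate 1 and for 9 with the length trend removed, and for none with DESeq2. Lists were not summarized on square-root TPM, whose differences are in other units. With 3 and 4 animals a gene that is not called is not shown to be unchanged. Nothing in the labels says whether the p-values also cover differences between batches, and the causes of these shifts were not tested.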

Other observations

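The lists not described above gave the following counts, beside 23.6% higher and 25.8% lower over all tested genes, and several of them were near those shares. Of 27 tested epithelial fate transcription factors 8 rose and 2 fell, with a median log2 change of 0.32. Of 14 tested desmosome and envelope linker genes 3 rose and 1 fell, against 1 and 1 by limma on log2(TPM + 1), and without NP replicate 1 6 rose and 0 fell. Of 25 tested protease inhibitors 7 rose and 5 fell. Of 6 tested adipocyte markers 3 rose and 0 fell, among them CFD (adipsin, a complement protease also made by other cells), which had 29.9, 57.9 and 26.2 TPM in NP and 63.0, 119.8, 525 and 263 TPM in LT, a log2 change of 3.00 (SE 0.73, adjusted p = 0.00805), and 2.31 without LT replicate 3. Of 4 tested ciliated cell markers 1 rose and 1 fell, or 1 and 0 without NP replicate 1. Of 8 tested receptors for relaxin, oxytocin and other peptide hormones 4 rose and 0 fell, against 2 and 0 by limma on log2(TPM + 1).

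Of 608 genes called with a change of more than 4-fold, 116 were members of any list and 104 had no gene name in the table, so that most of the large changes lie outside the groups described here.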
